A study of Caenorhabditis elegans with 4 samples.

Results

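The SEM-4 binding regions of chromosome V are described here. They are the 1283 entries on chromosome V among the 7554 regions of a combined list of chromatin immunoprecipitation and sequencing (ChIP-seq) calls, and they were chosen by chromosome alone. The same chromosome carried 928 of the 5386 regions called in ChIP replicate 1 and 431 of the 2527 called in ChIP replicate 2. The worms were Caenorhabditis elegans hermaphrodites of strain OP57 at the L2 larval stage, grown at 20 °C, and all samples share 2 genetic changes. The first is the mutation unc-119(ed3). The other is the transgene wgIs57, introduced by bombardment, which holds sem-4::TY1 EGFP FLAG together with unc-119, so that SEM-4 is made as a fusion with GFP and a further copy of unc-119 is present. The 4 samples are 2 ChIP libraries, collected with antibodies to GFP, and 2 input libraries of total genomic DNA, which enter only through the authors' calls. The labels do not say whether the replicates were separate cultures. Whole worms were used, so a region bound strongly in few cells and one bound weakly in many cannot be told apart.

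SEM-4 belongs to the Spalt family, zinc-finger proteins of the nucleus that bind DNA and are conserved from worms to mammals. In C. elegans it is known for its part in the fates of neurons, vulval cells and sex myoblasts. Chromosome V is the longest chromosome of the worm. Like the other autosomes it has a central domain with little recombination, flanked by arms in which recombination and repeated sequence are more frequent, and its arms are known for large families of chemoreceptor genes. The study asked where in the genome the tagged protein is found in L2 larvae.

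Every region comes with its borders and a q-value, a p-value for its excess of ChIP reads that is adjusted for the many regions tested. Strength is written below as −log10 of that q-value, so that the list limit of q = 0.01 corresponds to a strength of 2. All coordinates are on WormBase WS220. An annotation and a genome on that build were not used here, so each region is identified by its position, without a gene or a sequence. The lists hold neither read counts nor fold enrichment, which leaves sequencing depth unknown: a higher strength can come from more enrichment or from more reads. Shares carry 95% Wilson intervals, which cover counting error only. Regions of 1 library are not replicates of each other, so no test was made over them, and differences between chromosomes are given as values side by side.

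Chromosome V was thinly covered by SEM-4 regions. It held 17.0% of the combined list (16.2 to 17.8) on 20.9% of the span of the 6 chromosomes, where the span runs from position 1 to the last region in any list. The density was 61.4 regions per Mb, against 79.1 on the other 5 chromosomes together. Chromosome V had the lowest density of the 6 in the combined list, with X next at 62.6 per Mb. This order did not hold in the replicate lists. In replicate 1, chromosome I was sparser, at 41.8 per Mb against 44.4 on both V and X. In replicate 2 both I, at 12.3, and X, at 20.5, lay below the 20.6 per Mb of V. The regions of V covered 599.5 kb, or 2.87% of its span, against 3.73% elsewhere.

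A typical region on V was narrow and of modest strength. Widths had a median of 348 bp, with quartiles of 243 and 541 bp, and reached 5893 bp. Elsewhere the median was 359 bp and the quartiles were 245 and 542 bp. The median strength was 3.74 on V (quartiles 2.66 and 6.50) and 3.96 on the other chromosomes (2.73 and 6.89). X was lower than V, at 3.52. These orders did not hold in every replicate list. In replicate 1 the medians were 338.5 bp and 3.29 on V, against 339 bp and 3.24 elsewhere. In replicate 2 they were 459 bp and 3.30 on V, against 426 bp and 3.38. In the combined list V held slightly fewer of the strongest entries than its share of the list: 7 of the top 50, 29 of the top 200, or 14.5% (10.3 to 20.0), and 153 of the top 1000, or 15.3% (13.2 to 17.7). The intervals at 50 and 200 include the 17.0% share, and so does that at 1000.

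Within V the binding regions were gathered in the middle of the chromosome. Of the 1283, 907 were centred within the middle 50% of the span, or 70.7% (68.1 to 73.1). The background over the other chromosomes was 60.4% of 6271 regions, from 51.3% on X to 66.2% on II. The centre carried 86.8 regions per Mb, the left arm 42.5 and the right arm 29.5. The same order of centre, left arm and right arm was found in both replicate lists, with 61.7, 30.0 and 24.1 per Mb in replicate 1 and 32.1, 10.9 and 7.27 in replicate 2. In the combined list, regions in the centre were also a little wider and stronger: the median width was 363 bp there, against 321.5 and 322.5 bp in the left and right arms, and the median strengths were 3.99, 3.47 and 3.42. The same held in replicate 1, with median widths of 366, 295 and 280.5 bp and median strengths of 3.44, 3.11 and 2.93. It did not hold in replicate 2, where the 38 regions of the right arm had a median width of 472 bp and strength of 3.69, against 463.5 bp and 3.32 in the centre.

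The gathering in the centre went with strength on V. When the whole combined list was cut into 5 equal classes of strength, the central share of the V regions was 67.4%, 67.9%, 68.9%, 72.4% and 77.6% from the weakest class to the strongest. On the other chromosomes the same shares were 58.4%, 59.3%, 61.8%, 60.8% and 61.5%. In the strongest class, 190 of 245 V regions were central, with an interval of 71.9 to 82.3. In the weakest class 186 of 276 were, with an interval of 61.7 to 72.7. These intervals overlap narrowly, and the trend was not tested.

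**Figure D1:**
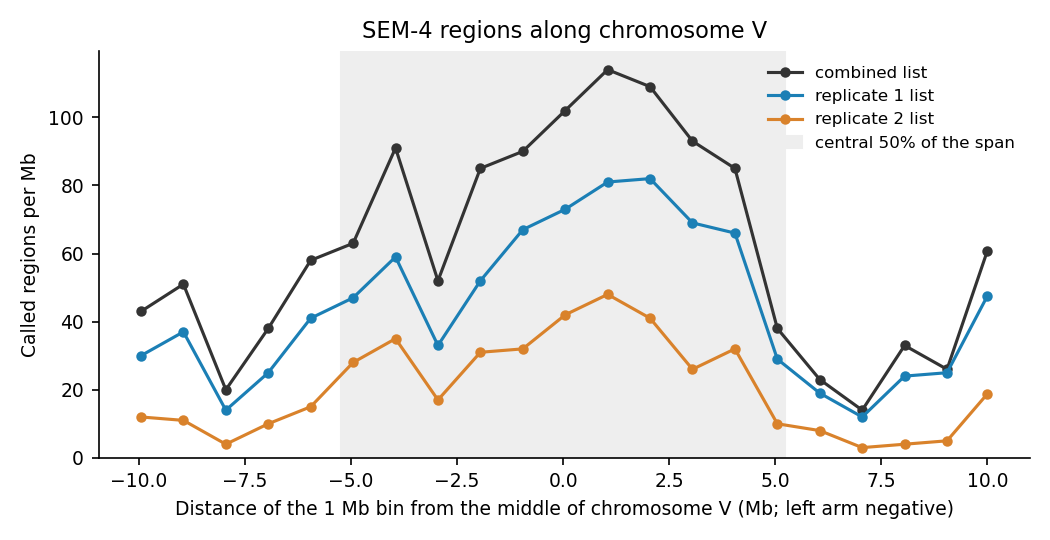
Called regions per Mb in 21 bins of 1 Mb along chromosome V (the last bin is shorter), plotted against the distance of each bin from the middle of the chromosome, for the combined list and both replicate lists; the shaded band is the central 50% of the span. All 3 lists are highest 1 to 2 Mb to the right of the middle, lowest 7 Mb to the right of it, and rise again at the right end. They also rise toward the left end from a dip within the left arm.

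The density changed steeply along the chromosome, and the 3 lists had similar profiles, with a larger ratio of centre to arms in replicate 2. In 1 Mb bins the combined list was densest from 11000001 to 12000000, with 114 regions, of which 37 were called in both replicates. The neighbouring bins held 102 to the left and 109 to the right. The sparsest bin, from 17000001 to 18000000 in the right arm, held 14 regions in the combined list, 12 in replicate 1 and 3 in replicate 2. Across the 21 bins, Spearman's rho between the replicate lists was 0.96, and it was 0.85 across the 210 bins of 100 kb. Both are descriptions of 1 pair of libraries whose bins share the same genome. A dip inside the centre, from 7000001 to 8000000, was present in every list, with 52, 33 and 17 regions between bins that held 91, 59 and 35 on the left and 85, 52 and 31 on the right.

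The drop on the right side was abrupt, and it began inside the centre. The bin from 14000001 to 15000000 held 85 combined regions and the next one held 38, followed by 23 and 14. On the left side the counts went down from 63 through 58 and 38 to 20, then rose to 51 and 43 toward the end. Replicate 1 rose there from 14 to 37 and 30, and replicate 2 from 4 to 11 and 12. The right end stood apart from the rest of its arm. Its last 1 Mb carried 56 combined regions, or 56.0 per Mb, against 23.2 per Mb in the remainder of the right arm. Replicate 1 had 44 regions in that last 1 Mb, against 19.4 per Mb in the remainder, and replicate 2 had 17, against 4.97 per Mb. By the same comparison the left end showed no such difference. Its first 1 Mb held 43.0 combined regions per Mb and the remainder of the left arm 42.4. That remainder averages the sparse bin of 20 regions with denser bins on both sides.

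The densest windows of 100 kb reflect both features. A window in the centre, from 12500001 to 12600000, and one near the right end, from 20700001 to 20800000, each held 20 combined regions, where the median window held 6. The first contained 19 regions of replicate 1 and 10 of replicate 2, and the second 16 and 7. The third, from 8600001 to 8700000, held 19 combined regions, 15 of replicate 1 and 9 of replicate 2. The strongest region of the right-end window had a q-value of 1.32e-53, and that of the window at 12500001 a q-value of 4.94e-14. At the other extreme, 21 of 210 windows held no combined region, and 18 of those held none in any list.

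Neighbouring regions lay close together on V, as they did on the other chromosomes. Of the 1283, 945 had another region within 5 kb, or 73.7% (71.2 to 76.0), which is near the background of 73.8% on the other chromosomes. Replicate 1 had 65.1% on V and 65.7% elsewhere. In replicate 2 the share was higher on V, at 58.5% (53.8 to 63.0) against 52.0% (49.8 to 54.1), with intervals that overlap narrowly. Within V, the share in the combined list was 77.4% in the centre, 70.3% in the left arm and 56.5% in the right arm. Joining regions less than 5 kb apart gave 620 groups, of which 338 were single regions and 55 had 5 or more members. Those 55 held 353 regions, or 27.5% of all on V, and 48 of them lay mostly in the centre. The largest group had 12 regions in 25.4 kb, from 12517818 to 12543246, and 4 of the 12 were called in both replicates. Groups were not counted on the other chromosomes. How far such groups are broad regions that the caller divided was not tested.

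Long stretches of V had no called region. The longest ran from 2245150 to 2600626 in the left arm, over 355.5 kb, and held no region in either replicate list. The next, from 17415201 to 17728752 in the right arm, measured 313.6 kb and contained 1 region of replicate 1 and none of replicate 2. The third was from 2803699 to 3073721, 270.0 kb long, with 1 region of replicate 1. The 10 longest stretches all lay in the arms, 3 of them in the left arm and 7 in the right. Mappability of reads in these stretches was not examined.

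Support by the replicate lists was close to that of the rest of the genome. Of the 1283 V regions, 364 overlapped a region of both replicates by at least 1 bp, or 28.4% (26.0 to 30.9), against a background of 27.9% on the other chromosomes. A further 454 overlapped replicate 1 only, or 35.4%, and 47 replicate 2 only, or 3.66%. The remaining 418 overlapped neither, or 32.6% (30.1 to 35.2), against 31.3% elsewhere. The background includes chromosome I, where support was low. Without chromosome I the other chromosomes had 30.7% in both (29.4 to 32.0) and 28.0% in neither (26.8 to 29.2), so that the interval of V for neither lay above theirs.

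Strength separated these classes on V much as on the other chromosomes. On V the median strength was 9.94 for regions in both replicates, 3.84 for those in replicate 1 only, 4.01 for those in replicate 2 only and 2.47 for those in neither. The median widths on V were 595, 323, 362 and 252 bp. Elsewhere the median strengths were 10.30, 3.99, 3.96 and 2.55, and the median widths 558.5, 331, 368.5 and 265 bp. In the strongest of the 5 classes, 231 of 245 V regions were in both replicates, or 94.3% (90.6 to 96.6), against 90.0% on the other chromosomes (88.3 to 91.6). On V, 0 of 245 were in neither, as were 0 of 1266 elsewhere. The V count allows a share of up to 1.22% when 3 counts are taken as the limit for a count of 0. Its Wilson upper bound is 1.54%. In the next class 119 of 246 V regions were in both, or 48.4% (42.2 to 54.6), against 42.6% elsewhere (39.9 to 45.4). In the 2 weakest classes together no V region was in both. The counts of 0 of 276 and 0 of 265 allow up to 1.09% and 1.13% by 3 counts, with Wilson upper bounds of 1.37% and 1.43%. The other chromosomes had 1 of 1235 and 2 of 1246 in both. These low counts are not independent of the list limits. A region in both needs a strength of at least 2 in each replicate. Combined strengths of such V regions were close to the sum of the replicate values, with a median ratio of 1.03, while these 2 classes end at 3.34. In the weakest class 234 of 276 V regions, or 84.8% (80.1 to 88.5), had no counterpart, against 79.8% elsewhere (77.4 to 81.9). Without chromosome I the others had 94.0% in both in the strongest class (92.4 to 95.3), 49.8% in the next (46.8 to 52.8) and 76.6% in neither in the weakest (73.9 to 79.1).

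**Figure D2:**
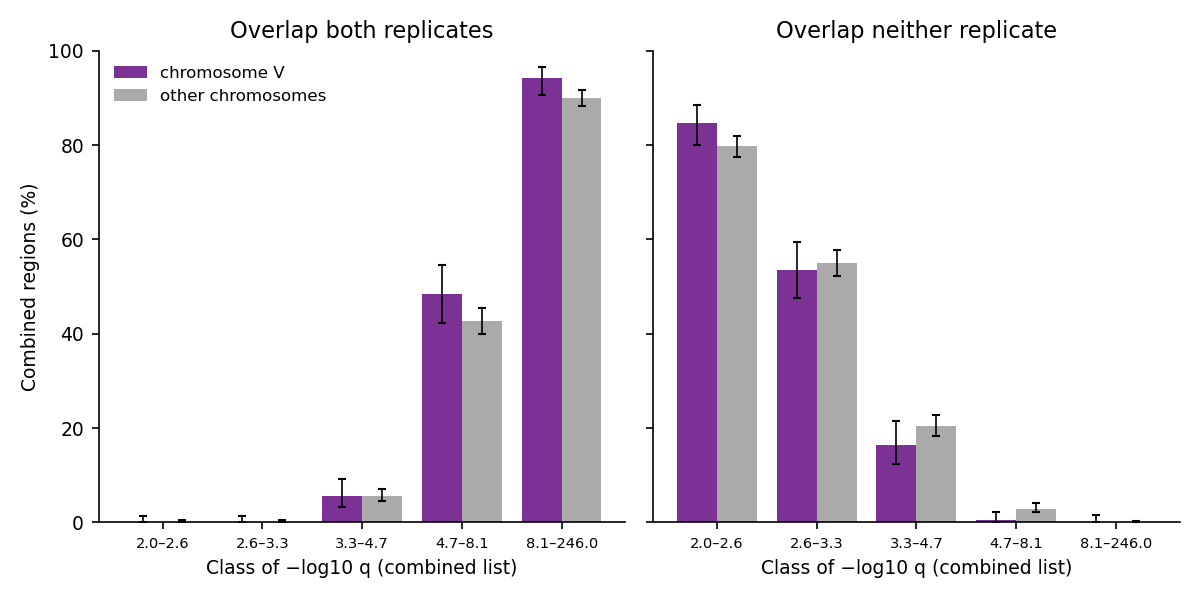
Share of combined regions that overlap both replicate lists (left) or neither (right), in 5 classes of −log10 q of equal size over the whole list, for chromosome V and for the other chromosomes together; error bars are 95% Wilson intervals. On V the share in both goes from 0 of 276 in the weakest class to 94.3% in the strongest, and the share in neither from 84.8% to 0 of 245. The other chromosomes show the same course, from 0.08% to 90.0% in both and from 79.8% to 0 of 1266 in neither.

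Support also differed with position. In the centre of V, 281 of 907 regions were in both replicates, or 31.0% (28.1 to 34.1), against 21.6% in the left arm (16.7 to 27.5) and 22.7% in the right arm (16.8 to 30.0). Regions in neither made up 31.6% of the centre, 37.8% of the left arm and 30.5% of the right arm. The arms also had the lower median strength, and the part of strength in this difference was not tested. Support of combined regions by position was not counted on the other chromosomes.

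Very narrow entries had little support. On V, 68 combined regions were under 50 bp wide, or 5.30%, against 3.99% on the other chromosomes, and the shortest was 1 bp. Of the 68, 51 overlapped neither replicate, 15 replicate 1 only and 2 replicate 2 only, and none overlapped both. Support of such narrow regions was not counted on the other chromosomes. The part of width and strength in their low support was not tested. Replicate 1 had 65 regions under 50 bp among its 928 on V, against 241 of 4458 on the other chromosomes. Replicate 2 had none among its 431 on V and 4 of 2096 elsewhere. The scarcity of narrow regions in replicate 2 was therefore not particular to V.

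The strongest regions called in both replicates were broad. The 15 with the lowest combined q-values had widths from 1111 to 5893 bp with a median of 2589 bp, and all were 1 kb or wider, as were 97 of the 1283 V regions. Width and q-value go together in these lists, so this breadth is not independent of the choice by q-value. Of the 15, 11 lay in the centre, 2 in the left arm and 2 in the right arm. Their ranks ran from 10 to 110 in the combined list, from 25 to 190 in replicate 1 and from 22 to 333 in replicate 2, by the best overlapping region in each. Combined strengths were 39.4 to 137.2, replicate 1 strengths 17.8 to 56.3 and replicate 2 strengths 8.09 to 33.8.

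The strongest combined region of V spanned 5893 bp, from 14363268 to 14369160, with a combined strength of 137.2. It was also the widest on the chromosome. Its best part had a strength of 53.9 in replicate 1, from 14365901 to 14369088, and of 17.4 in replicate 2, from 14366008 to 14367384. It was divided into 2 regions in replicate 1 and 3 in replicate 2, and the best of these ranked 27 and 82.

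The second, from 13653890 to 13659053, was 5164 bp wide and had strengths of 112.6 in the combined list, 46.7 in replicate 1 and 33.8 in replicate 2. It was one of 3 among the 15 that ranked higher in replicate 2, at 22, than in replicate 1, at 39. The third spanned 3045 bp from 10714815 to 10717859, with strengths of 81.2, 50.5 and 25.3. Replicate 1 called it as a single region with nearly the same borders, from 10714819 to 10717854, while replicate 2 had 2 regions there.

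Close to the left end, the region from 723623 to 728413 had strengths of 80.4, 48.2 and 22.2. It was the third widest of V at 4791 bp, and the replicate 1 call, from 723626 to 728404, matched its borders within 9 bp. Several strong regions lay in 1 stretch of the centre. The region from 9545241 to 9547896 had strengths of 75.0, 56.3 and 31.5, and the one from 9342964 to 9345182 had 68.4, 48.0 and 19.6. A further central region, from 9730668 to 9733256, had strengths of 55.9, 32.5 and 23.4. It ranked 64 in replicate 1 and 50 in replicate 2. All 3 of these were between 2219 and 2656 bp wide.

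Replicate values came closest to each other at the shortest of the 15, from 5049225 to 5050335. Its strength was 54.2 in the combined list, 28.1 in replicate 1 and 28.3 in replicate 2, where it ranked 35 against 86 in replicate 1. It was the only one of the 15 with the higher value in replicate 2. The lowest placed of the 15 in both replicate lists was at 19519557 to 19523163 in the right arm. There the combined region of 3607 bp had a strength of 48.7, while replicate 1 held 4 separate regions, the best with a strength of 17.8 and rank 190, and replicate 2 held 2, the best with 8.09 and rank 333.

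The right end contributed 1 of the 15, from 20777696 to 20779199, inside the dense window at 20700001. Its strengths were 52.9, 36.3 and 22.5, and each replicate called it as 1 region. Over the 15, the ratio of replicate 2 to replicate 1 strength ranged from 0.32 to 1.01, with a median of 0.49.

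**Figure D3:**
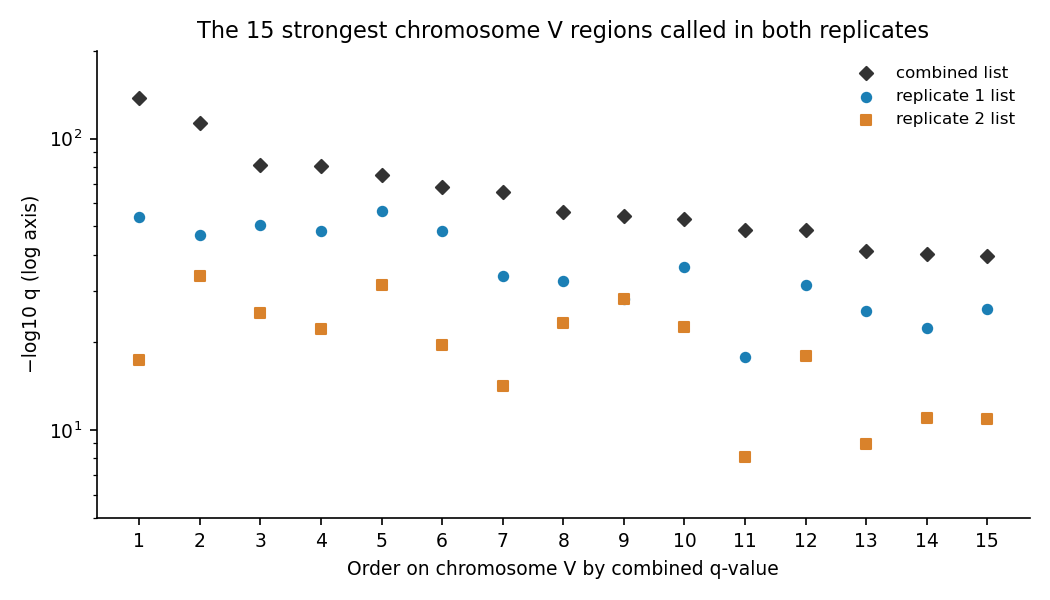
Strength (−log10 q, log axis) in the combined, replicate 1 and replicate 2 lists of the 15 strongest chromosome V regions overlapping both replicates, in order of combined q-value; for a replicate, the point is its best overlapping region. The combined value lies above both replicate values for all 15, and replicate 2 lies above replicate 1 only for the ninth, at 28.3 against 28.1.

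The highest strength on V in either replicate belonged to a region that the combined list does not contain. Replicate 1 called it from 6221388 to 6231164, with a width of 9777 bp and a strength of 184.9, and replicate 2 from 6222757 to 6230058, with a width of 7302 bp and a strength of 121.4. It was rank 1 of the whole list in both, and the replicate 2 call lay entirely inside that of replicate 1. The next strongest V region reached 56.3 in replicate 1, at rank 25, and 33.8 in replicate 2, at rank 22. The next widest measured 4779 and 3478 bp. In the combined list, an empty interval of 18617 bp separated the region ending at 6214231 from the one starting at 6232849. That interval also held a small replicate 1 region, from 6221004 to 6221159, with a strength of 2.18. No comment line in the files records a change to a V region when coordinates were moved to WS220. Why the region is missing from the combined list was not tested.

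Its surroundings were called in all 3 lists. Within 50 kb of its centre there were 14 regions in the combined list, 12 in replicate 1 and 9 in replicate 2. The replicate counts include the broad region itself. To the left, the combined region from 6213071 to 6214231 had a strength of 10.6, and its counterparts had 4.02 in replicate 1 and 5.36 in replicate 2. To the right, the region from 6246320 to 6248249 had 33.4 in the combined list, and the one from 6267314 to 6267947 had 37.4, with 23.7 in replicate 1 and 15.8 in replicate 2. The group of combined regions less than 5 kb apart that begins at 6232849 had 9 members and ended at 6254263.

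**Figure D4:**
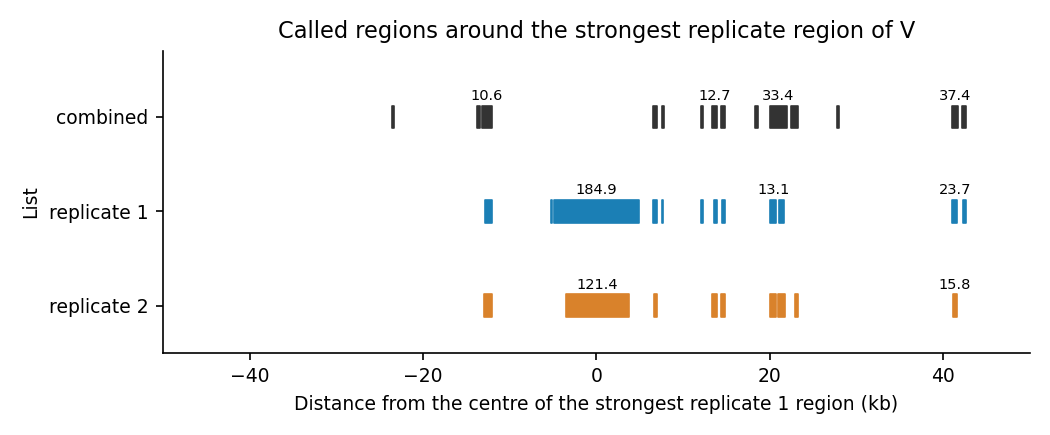
Called regions in the 3 lists within 50 kb of the centre of the strongest replicate 1 region of chromosome V; each block is a region drawn to its width, and numbers give −log10 q where it exceeds 10. Both replicates have a broad central block, at 184.9 and 121.4, where the combined list is empty. Of the smaller replicate regions on either side, those beyond the empty interval have a combined counterpart, while 1 of replicate 1 just left of the broad block has none.

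No other V region of a replicate list that lacked a combined counterpart was strong. In replicate 1, 79 of 928 had none, against 306 of 4458 on the other chromosomes, so that 91.5% of V regions (89.5 to 93.1) and 93.1% of the others (92.4 to 93.8) had a counterpart. After the one at 6221388, the strongest were at 12550917 to 12551343, with a strength of 4.24, and at 352788 to 352839, with 3.37. The 79 had a median width of 42 bp, and 41 of them were under 50 bp. In replicate 2, 4 of 431 had none, against 16 of 2096 elsewhere, which leaves 99.1% with a counterpart on V and 99.2% on the others. Those elsewhere include 1 on chromosome I, 3642 bp wide, with the highest replicate 2 strength of that chromosome, 41.2. Unlike the broad region of V, it had no overlap in replicate 1 either. On V, the 3 beside the broad one had strengths of 2.51 at 16994336 to 16994616, 2.08 at 4186483 to 4186838 and 2.02 at 597907 to 598444.

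The replicates found largely the same strong places on V, at a lower strength in replicate 2. Of its 431 regions, 378 overlapped replicate 1, or 87.7% (84.3 to 90.5), against a background of 86.4%. Of the 928 in replicate 1, 370 overlapped replicate 2, or 39.9% (36.8 to 43.1), against 40.3%. Among the 100 strongest V regions of each list, all 100 were found in the other. In the top 200 there were 180 of replicate 1 and 196 of replicate 2. The same counts were not made for the other chromosomes. The shared base pairs, 195.4 kb, were 47.9% of the length called in replicate 1 and 79.7% of that in replicate 2.

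Over 366 pairs of regions that were each other's best overlap, the median ratio of replicate 2 to replicate 1 strength was 0.67 (quartiles 0.48 and 0.89). The other chromosomes had a median of 0.70 over 1771 pairs. Replicate 2 was the lower in 305 pairs, or 83.3% (79.2 to 86.8), against 79.3% elsewhere (77.3 to 81.1). Spearman's rho of strength across the V pairs was 0.63, the lowest of the 6 chromosomes, where the others ranged from 0.71 to 0.76. These correlations are across regions of the same 2 libraries, and their differences were not tested. The centres of paired regions on V were a median of 49.5 bp apart, and 90% lay within 226.0 bp. Median widths were 498 bp in replicate 1 and 469.5 bp in replicate 2.

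**Figure D5:**
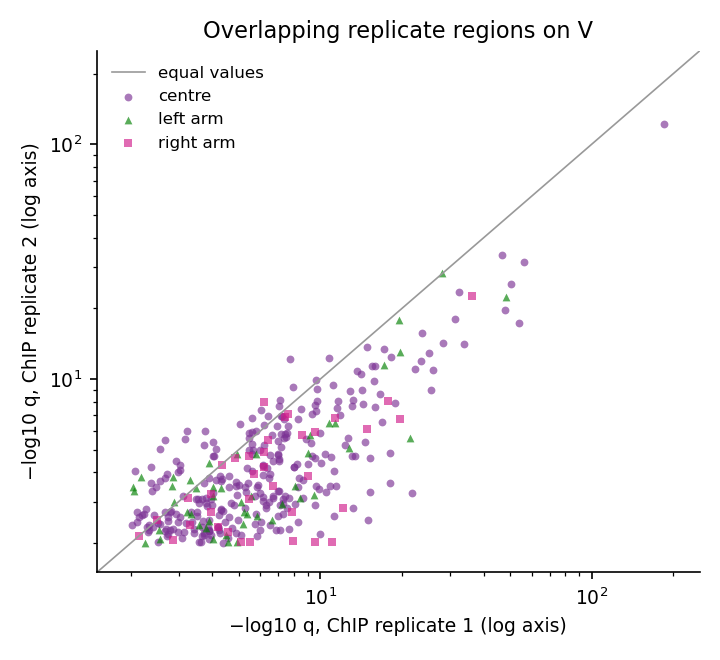
Strength (−log10 q) of 366 pairs of overlapping chromosome V regions in replicate 1 (horizontal, log axis) and replicate 2 (vertical, log axis), with symbols for the centre and the arms; the line marks equal values. Most points, 305 of 366, lie below the line, and the single point at the upper right is the pair with strengths of 184.9 and 121.4.

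The overlap between replicates differed along V. In the centre, 285 of 645 replicate 1 regions were found in replicate 2, or 44.2% (40.4 to 48.0), against 85 of 283 in the 2 arms together, or 30.0% (25.0 to 35.6). For the other chromosomes the shares were 41.8% in the centre (39.9 to 43.7) and 38.0% in the arms (35.8 to 40.3), but single chromosomes differed. Chromosome IV had 46.0% in the centre (42.3 to 49.7) and 37.2% in the arms (32.9 to 41.8), chromosome I had 30.6% and 22.9%, and II had 39.6% and 34.7%. On III the counts were 308 of 628 and 193 of 416, with overlapping intervals (45.2 to 52.9 and 41.7 to 51.2). On X the order was the other way, with 37.0% and 42.2%. Replicate 2 had 52.1 regions for every 100 of replicate 1 in the centre of V, 36.3 in the left arm and 30.2 in the right arm. The median replicate 1 strength was 3.44 in the centre and 3.02 in the arms, and the part of strength in the lower overlap was not tested. In the other direction, 293 of 336 central regions of replicate 2 were found in replicate 1, or 87.2%, and 85 of 95 in the arms, or 89.5%. The median strength ratio of the pairs was 0.68 in the centre and 0.65 in the arms.

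Regions of V called in 1 replicate alone had a lower median strength than shared ones. The median strength was 2.74 for unshared and 5.82 for shared regions of replicate 1, and 2.42 and 3.52 in replicate 2. The strongest of replicate 1 without a counterpart, from 13090204 to 13091309, had a strength of 8.14 and rank 706. It lies inside the fifth widest combined region, from 13087595 to 13091335, which overlaps replicate 2 only through another part, from 13089442 to 13089818. Those at 10039786 to 10040193 and 20580537 to 20580926 had 8.06 and 7.75. In replicate 2 the strongest such region, from 13715314 to 13715624, had a strength of 4.63 and rank 821, followed by 3.93 at 16963827 to 16964587 and 3.76 at 8215072 to 8215563. Among combined regions in 1 replicate only, the strongest were at 14195914 to 14197984, 1155957 to 1157609 and 6511069 to 6511990, all in replicate 1, with combined strengths of 15.5, 13.0 and 10.6.

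Combined regions of V in neither replicate began far down the list. The 3 strongest were from 6326087 to 6326631, from 12065356 to 12066103 and from 11226847 to 11227218, with strengths of 5.60, 4.38 and 4.05 and ranks of 2459, 3303 and 3653. All 3 lay in the centre and were 545, 748 and 372 bp wide.

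Where a V region was found in all 3 lists, the combined list gave it the highest strength in 363 of 364 cases. On the other chromosomes this held in 1744 of 1752. On V the combined value was a median of 1.75 times that of replicate 1 and 2.61 times that of replicate 2. It was close to the sum of both, with a median ratio to the sum of 1.03. Elsewhere these medians were 1.80, 2.56 and 1.04. Combined regions were also wider, with a median of 595 bp for the 364, against 498 bp and 466 bp for their best parts. Few were divided in a replicate: 28 of 818 V regions overlapped 2 or more regions of replicate 1, or 3.42% (2.38 to 4.90), and 17 of 411 overlapped 2 or more of replicate 2, or 4.14% (2.60 to 6.52). The shares elsewhere were 2.49% (2.06 to 3.02) and 3.24% (2.55 to 4.10). Those divided were broad, with median widths of 1860.5 and 2219 bp. The 5 widest V regions of the combined list all overlapped both replicates. They included 3 of the 4 strongest, and also the regions from 5840747 to 5845004 and from 13087595 to 13091335, with strengths of 31.1 and 30.8.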

How the data were processed

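Crosslinking was with 2% formaldehyde, and 10% of the cleared extract served as input, per the labels' protocols. Regions are PeakSeq calls on WormBase WS220, per the file headers, with 1 deposited list for each ChIP library and a combined one. Each deposited value is a q-value, used as the authors gave it; the largest was 0.00998. Not given in the sources used here are the PeakSeq version, aligner, filters, control and way of combining replicates. No V region is among those that the files' comment lines record as changed in the move to WS220.

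Overlap of at least 1 bp was taken between lists on the same chromosome, and the shares on V were set beside those of other chromosomes. Overlaps were counted with Python 3.11.15, numpy 2.4.6, scipy 1.17.1 and pandas 2.3.3, and bedtools 2.31.1 gave equal counts. Figures used matplotlib 3.10.9. A pair was 2 regions each the lowest-q overlap of the other. The functions were tested on simulated lists. The regions named were the 15 with the lowest q in both replicates, the 3 lowest in neither and in 1 replicate only, the 3 strongest of each replicate without a combined or replicate counterpart, the 5 widest, the 3 longest gaps and the 3 densest windows; others were named after their values were seen. Members, rules and lists were chosen with earlier results of these data known. Alternatives were a stricter overlap or q, each replicate left out or used alone, and covered length. Assigning genes and features to regions was not carried out, since it needs an annotation on WS220.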

Additional observations from a re-analysis of the deposited data

How the results depend on the processing

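Of 30 values under alternatives, 12 stayed within the interval of the value reported and 18 moved outside it. With 50% reciprocal overlap, V regions in both replicates were 23.3% and in neither 39.8%, replicate 2 in replicate 1 was 74.9% and replicate 1 in replicate 2 was 34.8%. With q of at most 0.001 in every list, the shares in both and in neither were 24.9% and 39.9%, the median width was 424 bp, and 62.7% had a neighbour within 5 kb. A neighbour within 2 kb was found for 52.0%. Counting support by 1 replicate, with the other left out, gave 32.0% to 63.8% supported and 36.2% to 68.0% unsupported. With a single replicate list standing in for the combined list, the central share was 69.5% to 78.0%, the median width 338.5 to 459 bp and the median strength 3.29 to 3.30; the share of the list on V was 17.1% to 17.2%. Without chromosome I, a removal added with its low support known, the other chromosomes had 30.7% in both replicates. No paired analysis was possible because only the ChIP libraries have region lists and no test was made. Depth is unknown, so the fewer regions of replicate 2 cannot be read as less binding.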
